A study of Mus musculus with 8 samples.

Results

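The genes of cholesterol synthesis, fatty acid synthesis and the liver X receptor (LXR) response were examined in mouse Ly6C-high monocytes of the bone marrow, the classical monocytes from which nonclassical monocytes arise. The 36 genes were chosen by name, 7 of the mevalonate arm, 11 of the sterol arm, 6 of sterol sensing and transport, 8 of fatty acid synthesis and 4 LXR targets. All 36 were among the 13744 genes with values, and 34 had a mean log2 CPM (reads scaled to a common library total) of at least 0 over the libraries and were compared. The other 2, Fads2 and Abca1, fell below that level. The series had 8 libraries in 4 genotypes with 2 libraries each, wild type, a conditional knockout of Bcl6 (Bcl6 cKO), a knockout of Irf2 (Irf2 KO) and a knockout of Nr4a1 (Nr4a1 KO), each named for a transcription factor. The sources used here do not give the Cre driver of the conditional knockout, the age or sex of the mice, or whether replicates were separate animals. P-values therefore reflect only how far these libraries varied, which may be technical variation.

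Cells make cholesterol from acetyl-CoA through mevalonate, isoprenoids, squalene and lanosterol. The membrane-bound factors SREBP-1 and SREBP-2, encoded by Srebf1 and Srebf2, switch on these enzymes and the enzymes of fatty acid synthesis when sterol is low. SCAP escorts them to the Golgi for cleavage, and the INSIG proteins hold SCAP back when sterol is high. LXR, which pairs with RXR, senses oxysterols and switches on genes of cholesterol export, among them Abca1, Abcg1 and Apoe, and also Srebf1. In monocytes and macrophages this balance sets how much cholesterol is made, stored and passed on.

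Each library held 46617756 to 62633123 reads assigned to genes, so that 1 CPM stood for 47.9 to 61.8 reads. Log2 CPM values are given for replicate 1 and then replicate 2 of a genotype. Changes are log2 fold changes ± SE with n = 2 libraries per genotype, from limma, a linear model that pools the spread over libraries and genes. A change was called at an adjusted p (Benjamini-Hochberg, over 12752 genes) under 0.05. Nr4a1 fell by 2.31 ± 0.27 in Nr4a1 KO (adjusted p = 0.000622) and by 2.41 ± 0.27 in Irf2 KO (adjusted p = 0.00163). Bcl6 also fell in Irf2 KO, by 1.07 ± 0.16 (adjusted p = 0.00382). Irf2 fell by 0.56 ± 0.14 in Irf2 KO (adjusted p = 0.0222), where reads of the gene remained at 6.50 and 6.69 log2 CPM. The libraries labelled Bcl6 cKO held 3.52-fold more Bcl6 reads than wild type rather than fewer (adjusted p = 0.00233), and a whole-gene count does not show whether a deleted exon was missing. These libraries are therefore named by their label throughout. Of 8 classical monocyte markers, which averaged 9.38 to 10.05 log2 CPM per library, 4 fell in Irf2 KO (50%, where 12.3% of all genes fell). They were Csf1r, F13a1, Itgam and Lyz2, the last by 1.04 ± 0.12 (2.05-fold, adjusted p = 0.00171). Ccr2 alone rose in Nr4a1 KO (adjusted p = 0.0349), or 12.5% of the 8, where 3.94% of all genes rose. None was called in the Bcl6 cKO-labelled libraries, and Ly6c2 was called in no knockout. The 8 summed to 32340 and 36990 CPM in wild type, 20720 and 23320 in Irf2 KO and 33580 to 38500 in the other knockouts. Their part in the values below was not tested. Each call was also refitted without each library in turn and under other settings, and those that ended it stand beside it, apart from the replicate block. A fit with no trend of the prior variance is written as no trend, and a fit of the compared genotypes alone as 2 genotypes alone.

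Across the 4 genotypes, 14 of the 34 genes (41.2%) differed by limma's F-test, beside 28.2% of all genes tested. Against wild type, 5 genes rose and 2 fell in Irf2 KO, or 20.6% of the 34. Of all genes 21.6% were called there, 9.26% higher and 12.3% lower. In Nr4a1 KO 1 rose and 3 fell, or 11.8%, beside 15.1% of all genes (3.94% higher and 11.2% lower). In the Bcl6 cKO-labelled libraries none rose and 2 fell, or 5.88%, beside 5.01% (1.36% higher and 3.65% lower). These shares lay near those of all genes, so what follows is a description of single genes and their roles. The 3 comparisons share the wild type libraries. The median change of the 34 genes was -0.20 in the Bcl6 cKO-labelled libraries, 0.15 in Irf2 KO and 0.13 in Nr4a1 KO, where the medians of all genes were -0.01, -0.04 and 0.01. In direct comparisons of knockouts, 6 genes were higher and 5 lower in Irf2 KO than in Nr4a1 KO (32.4%, where 22.3% of all genes were called, 12.4% higher and 9.94% lower). Against the Bcl6 cKO-labelled libraries, 6 were higher and 1 lower in Irf2 KO (20.6%, beside 9.55% of all genes, 3.87% higher and 5.68% lower). Between Nr4a1 KO and the Bcl6 cKO-labelled libraries, 1 gene was higher and none lower in Nr4a1 KO (2.94%, beside 5.75% of all genes, 0.776% higher and 4.97% lower).

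**Figure D1:**
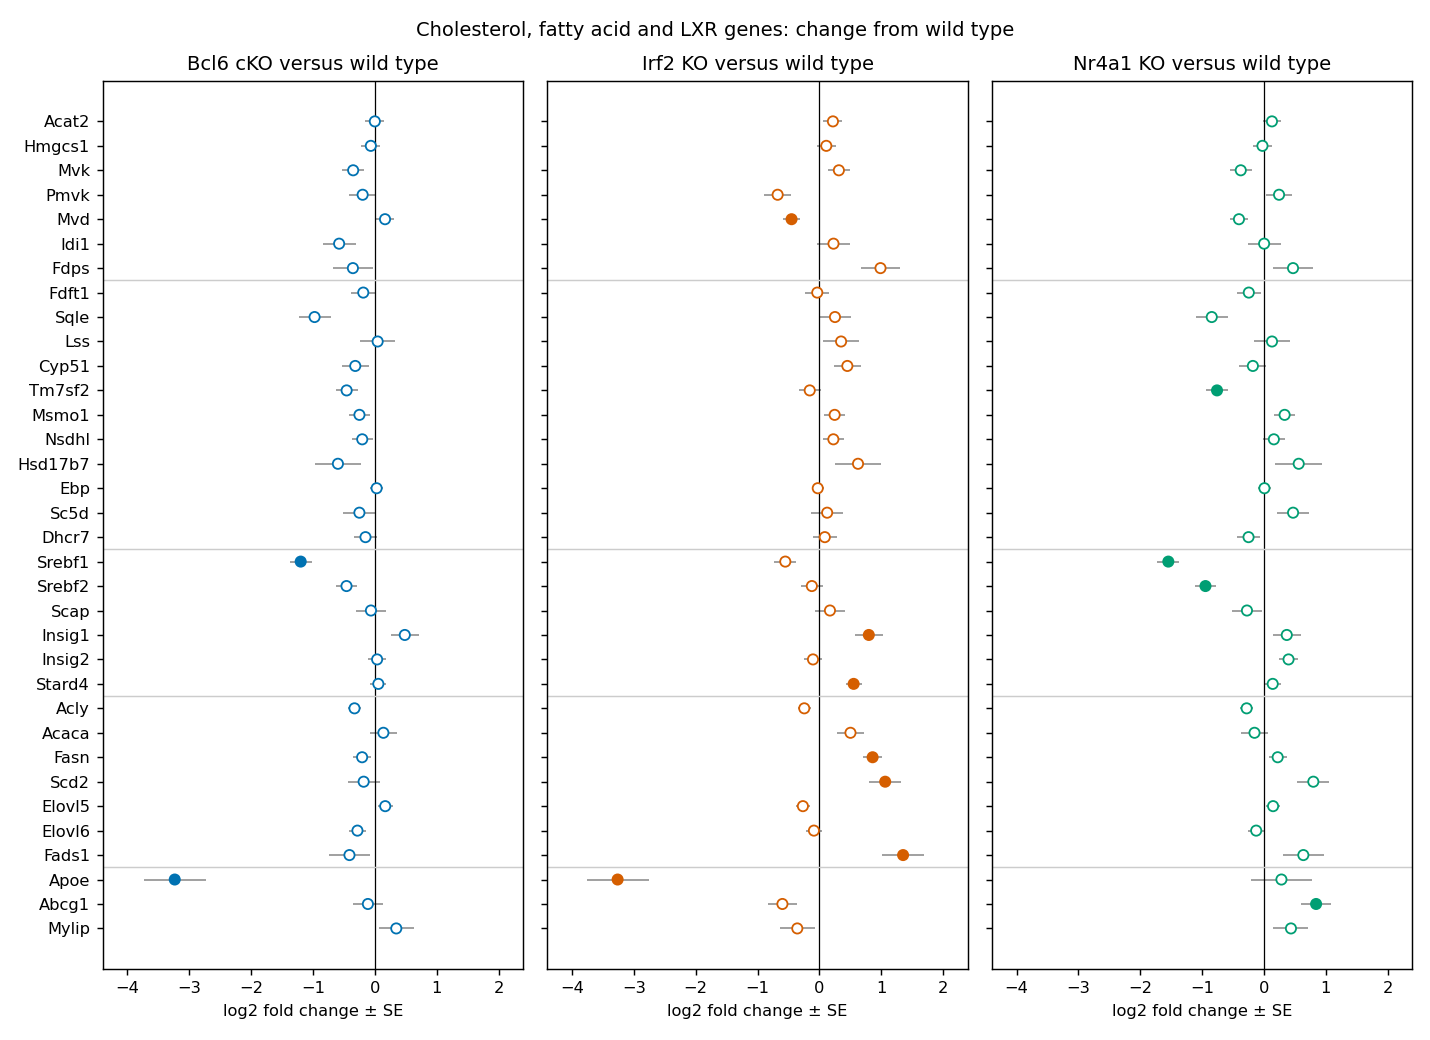
Log2 fold change ± SE (horizontal axis) of the 34 genes (vertical axis, in order of role, grey lines between roles) in each knockout against wild type, n = 2 libraries per genotype, filled where the adjusted p was under 0.05. Apoe lay farthest from 0 in the Bcl6 cKO-labelled libraries and in Irf2 KO, at -3.24 and -3.26, and Srebf1 in Nr4a1 KO, at -1.55.

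Of the 34 genes, 17 were called in at least 1 of the 7 tests and the other 17 in none. The share of all genes called in at least 1 of these tests was not computed. The count of 17 therefore has no background beside it. Both Irf2 KO libraries lay above the other 6 libraries for 8 genes (23.5%, where 14.4% of all genes did so), namely Mvk, Cyp51, Scap, Insig1, Stard4, Acaca, Fasn and Fads1. They lay below the others for 5 genes (14.7%, background 15.7%), namely Pmvk, Insig2, Elovl5, Abcg1 and Mylip. Both Bcl6 cKO-labelled libraries were the lowest for 5 genes (14.7%, background 2.77%), Idi1, Fdps, Msmo1, Fasn and Elovl6, none of which passed the test against wild type. They were the highest for 1 gene, Mvd (background 4.94%). The Nr4a1 KO libraries were the highest for 3 genes (8.82%, background 8.12%), Sc5d, Insig2 and Abcg1, and the lowest for 3 (background 12.5%), Tm7sf2, Srebf1 and Srebf2.

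**Figure D2:**
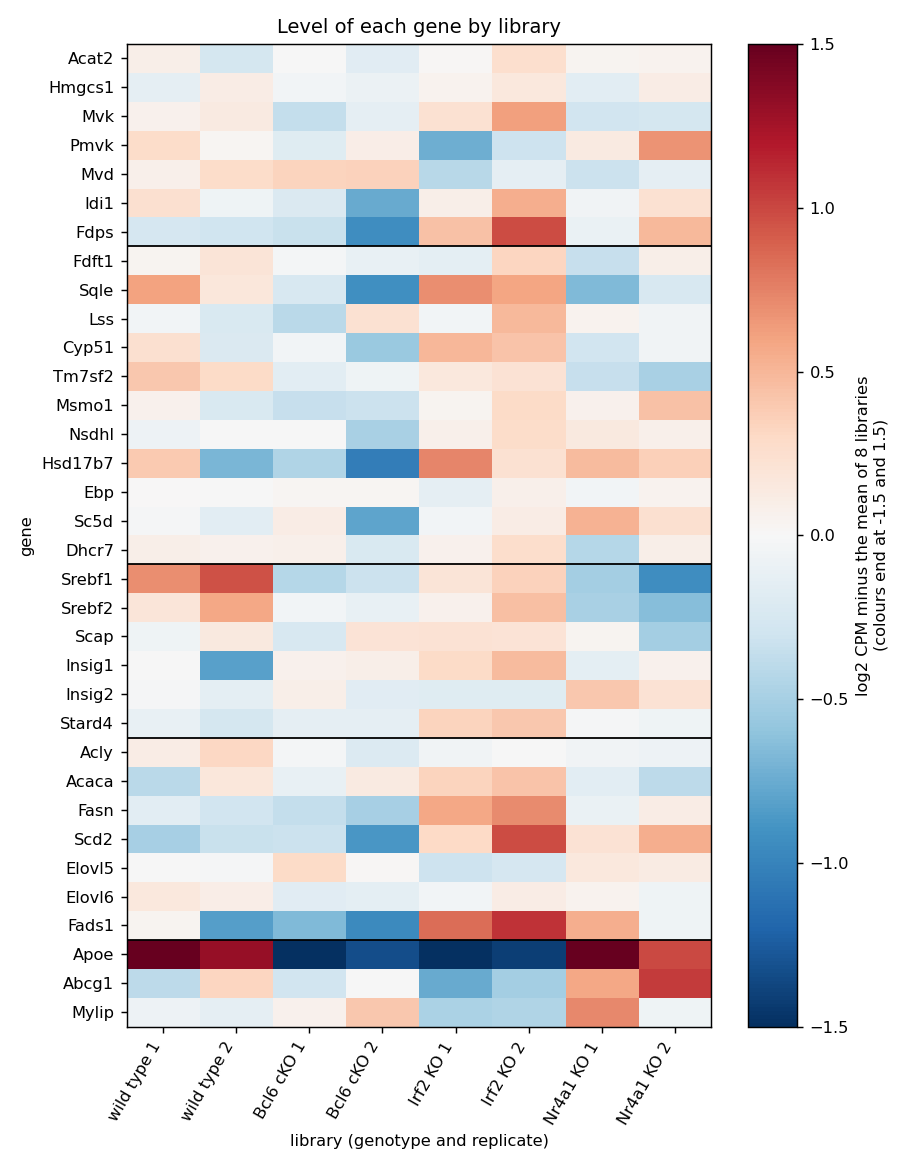
Log2 CPM of each of the 34 genes in each of the 8 libraries minus the gene's mean over the 8, black lines between roles, with colours that end at -1.5 and 1.5. Apoe is dark blue in all 4 libraries of Irf2 KO and of the genotype labelled Bcl6 cKO, while Fasn and Fads1 are red in both Irf2 KO libraries.

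The sensors and regulators were described first, since Srebf1 had the lowest adjusted p of any of the 34 genes in a comparison with wild type. Srebf1 (ENSMUSG00000020538, GRCm38 chr11:60199089-60222581, minus strand) encodes SREBP-1, which drives genes of fatty acid synthesis. Its log2 CPM was 5.0 and 5.26 in wild type, 3.88 and 3.98 in the Bcl6 cKO-labelled libraries, 4.50 and 4.65 in Irf2 KO and 3.80 and 3.37 in Nr4a1 KO. Wild type was above all 6 knockout libraries, Nr4a1 KO below all others, and Irf2 KO between. Srebf1 fell by 1.55 ± 0.18 in Nr4a1 KO (2.92-fold, adjusted p = 0.000652) and by 1.20 ± 0.18 in the Bcl6 cKO-labelled libraries (2.30-fold, adjusted p = 0.00979). In Irf2 KO its change of -0.55 ± 0.18 did not pass (adjusted p = 0.0597), whereas in the authors' deposited table the adjusted p was 0.0309. The difference of 0.99 ± 0.18 between Irf2 KO and Nr4a1 KO did (adjusted p = 0.00575). The call in the Bcl6 cKO-labelled libraries ended without wild type replicate 2 (adjusted p = 0.0554) or without either of the Bcl6 cKO-labelled libraries (0.110 without replicate 1 and 0.0565 without replicate 2).

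Srebf2 (ENSMUSG00000022463, chr15:82147181-82205379) encodes SREBP-2, which drives the cholesterol enzymes. It stood at 5.52 and 5.92 log2 CPM in wild type, 5.30 and 5.23 in the Bcl6 cKO-labelled libraries, 5.41 and 5.79 in Irf2 KO and 4.85 and 4.70 in Nr4a1 KO. Only in Nr4a1 KO were both values below every other library. Srebf2 fell by 0.95 ± 0.17 there (1.93-fold, adjusted p = 0.00760) and was 0.82 ± 0.17 higher in Irf2 KO than in Nr4a1 KO (adjusted p = 0.0114). Without wild type replicate 2 the first call ended (adjusted p = 0.0550), and without Irf2 KO replicate 2 the second did (0.0822). Both Srebf genes are rich in G and C, and over 12740 genes log2 fold change in Nr4a1 KO fell with GC content (Spearman -0.34). After a correction for GC content and length, the change of Srebf2 in Nr4a1 KO was -0.48 (adjusted p = 0.0923) and that of Srebf1 was -1.03 (adjusted p = 0.00366).

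A pair of SREBP target genes, Insig1 and Stard4, rose in Irf2 KO. Insig1, which retains SCAP, had 5.96 and 5.16 log2 CPM in wild type, 6.03 and 6.06 in the Bcl6 cKO-labelled libraries, 6.26 and 6.45 in Irf2 KO and 5.82 and 6.03 in Nr4a1 KO. The second wild type library was the lowest of all 8. Insig1 rose by 0.80 ± 0.23 in Irf2 KO (adjusted p = 0.0373), a call that ended without wild type replicate 2 (0.139), either Bcl6 cKO-labelled library (0.0678 and 0.0674) or either Irf2 KO library (0.0921 and 0.168), and also with no trend (0.0812) or 2 genotypes alone (0.0657). The rise was 0.40 without wild type replicate 2 and 1.20 without replicate 1. Stard4, which carries cholesterol between membranes, had 4.33 and 4.18 log2 CPM in wild type, 4.30 and 4.31 in the Bcl6 cKO-labelled libraries, 4.77 and 4.84 in Irf2 KO and 4.42 and 4.37 in Nr4a1 KO. The 6 libraries outside Irf2 KO spanned 4.18 to 4.42, with both Irf2 KO libraries above them. Stard4 rose by 0.55 ± 0.13 in Irf2 KO (adjusted p = 0.0198), which ended without wild type replicate 2 (0.104) or either Irf2 KO library (0.0745 and 0.105). It was 0.50 ± 0.13 higher in Irf2 KO than in the Bcl6 cKO-labelled libraries (adjusted p = 0.0482), a call that ended without any 1 of the 6 libraries of wild type, Irf2 KO or that label (0.0599 to 0.218) and with no trend (0.0668).

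Insig2, the paralogue of Insig1, was lowest where Insig1 was highest. It had 4.42 and 4.29 log2 CPM in wild type, 4.52 and 4.27 in the Bcl6 cKO-labelled libraries, 4.25 and 4.25 in Irf2 KO and 4.84 and 4.66 in Nr4a1 KO. It did not pass the test against wild type in any knockout and was 0.50 ± 0.15 lower in Irf2 KO than in Nr4a1 KO (adjusted p = 0.0418). That call ended in 7 of the 8 fits that left out 1 library, and held only without Nr4a1 KO replicate 2 (highest adjusted p 0.166). It ended too with no trend (0.0583), 2 genotypes alone (0.0728) or library weights (0.0569). Scap, the escort of the SREBPs, ranged from 2.79 to 3.51 log2 CPM and was called in no test.

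**Figure D3:**
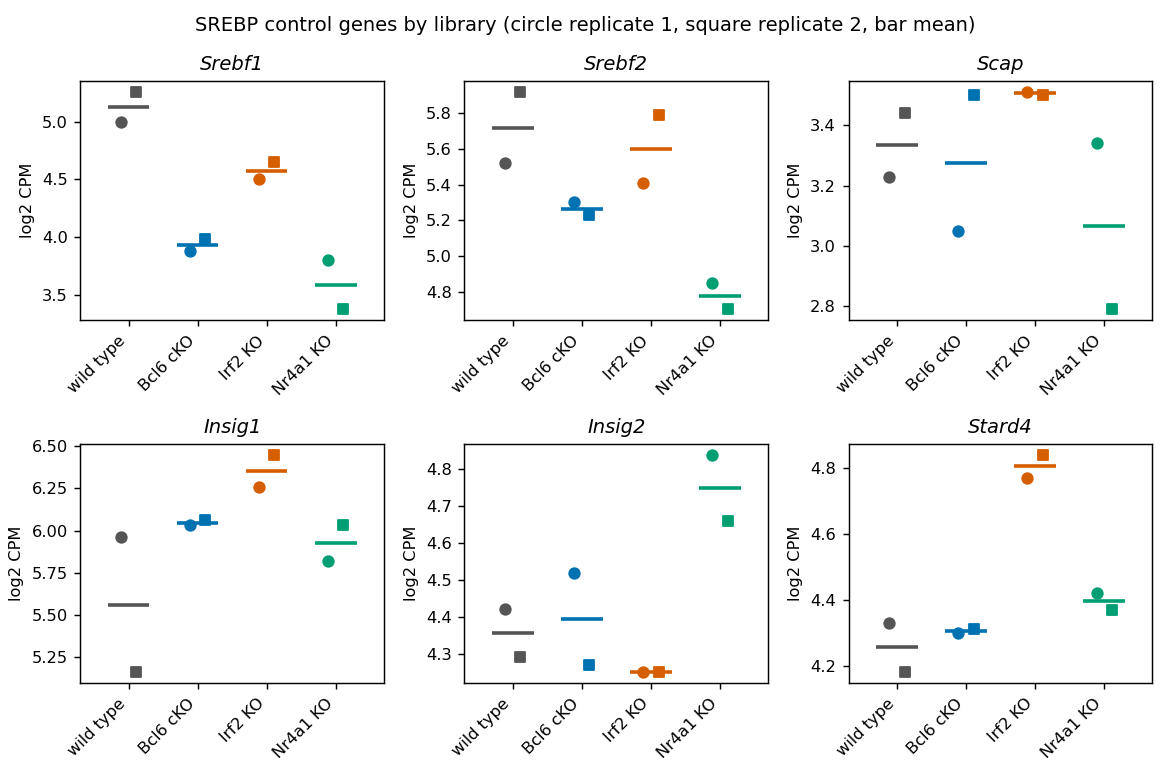
Log2 CPM (vertical axis, a separate range in each panel) of the 6 genes of SREBP control and sterol transport in each library of the 4 genotypes (horizontal axis), with bars at the mean of 2 libraries. Srebf1 was highest in wild type and Srebf2 lowest in Nr4a1 KO, while Insig1 and Stard4 were highest in Irf2 KO.

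The upstream sequence of members was searched for the letters that these pathways are known to use. RefSeq promoters on GRCm38.p6 were found for 29 of the 36 genes, with 39 windows in all, since some genes have several starts, and the 250 bases before each start were read on both strands. No promoter entry was found for Fdps, Fdft1, Sqle, Stard4, Scd2, Fads1 and Abcg1, so these genes were not searched. A sterol element of the form TCACNCCAC was in 1 window, that of Hmgcs1 (2.56%, and 1.05% of all 32851 windows). The CCAAT box, bound by NF-Y, was in 22 windows (56.4%, and 33.8% of all). The E-box CACGTG was in 7 (17.9%, and 6.02% of all). For the factors knocked out, the interferon-response form, which IRF proteins bind and which was taken as GAAA, 2 bases and GAAA, was in 1 window, that of Ebp (2.56%, and 2.98% of all). The BCL6 form TTCCTNGAA (1.31% of all) and the NR4A form AAAGGTCA (1.34% of all) were in none of the 39. The plain LXR repeat, AGGTCA, 4 bases and AGGTCA, was also in none (0.0152% of all). The form GGTTACT, 2 bases and CGGTCA, taken from the known LXR elements of Srebf1 and Abca1 after those windows had been read, was in 3 of 39 windows (7.69%) and in no other of the 32851. These 3 belong to Srebf1, Abca1 and Fasn. The form was written from 2 of these genes, so its presence there is a description. A match of letters does not show binding.

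Windows are printed 5′ to 3′ on the gene's own strand for Srebf1, which fell in Nr4a1 KO, for Fasn and Insig1, which rose in Irf2 KO, and for Hmgcs1, which was called in no test and holds the sterol element. Capitals mark the motifs above, and the Srebf1 window is the most downstream of 3 in the table.
Srebf1, chr11:60210472-60210721, minus strand, LXR form and CCAAT box: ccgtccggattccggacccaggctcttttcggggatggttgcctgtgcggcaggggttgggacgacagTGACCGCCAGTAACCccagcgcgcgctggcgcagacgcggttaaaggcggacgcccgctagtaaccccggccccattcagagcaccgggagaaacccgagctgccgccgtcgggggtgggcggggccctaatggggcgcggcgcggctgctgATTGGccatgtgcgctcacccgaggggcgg
Fasn, chr11:120824548-120824797, minus strand, LXR form and CCAAT boxes: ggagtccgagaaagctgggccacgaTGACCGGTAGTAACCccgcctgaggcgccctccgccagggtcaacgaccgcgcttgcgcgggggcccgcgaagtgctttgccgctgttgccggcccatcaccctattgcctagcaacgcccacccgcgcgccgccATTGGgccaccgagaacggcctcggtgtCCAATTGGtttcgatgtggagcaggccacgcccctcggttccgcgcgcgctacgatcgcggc
Insig1, chr5:28071162-28071411, plus strand, CCAAT box and E-box: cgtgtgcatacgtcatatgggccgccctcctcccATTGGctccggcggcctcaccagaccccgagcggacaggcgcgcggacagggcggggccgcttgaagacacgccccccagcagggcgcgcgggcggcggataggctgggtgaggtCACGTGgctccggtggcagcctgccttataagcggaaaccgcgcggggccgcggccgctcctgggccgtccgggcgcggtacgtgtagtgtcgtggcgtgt
Hmgcs1, chr13:119690101-119690350, plus strand, CCAAT boxes and sterol element: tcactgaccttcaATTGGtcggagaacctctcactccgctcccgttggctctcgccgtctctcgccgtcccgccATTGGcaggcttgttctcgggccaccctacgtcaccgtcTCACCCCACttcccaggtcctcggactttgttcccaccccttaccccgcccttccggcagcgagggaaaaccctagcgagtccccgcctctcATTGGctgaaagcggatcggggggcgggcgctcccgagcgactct

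Among the 7 genes of the mevalonate arm, 1 (14.3%, where 12.3% of all genes fell) fell against wild type in Irf2 KO and none was called in the other 2 comparisons with wild type. Mvd, which decarboxylates mevalonate diphosphate to the first isoprenoid, had 5.61 and 5.81 log2 CPM in wild type, 5.87 and 5.88 in the Bcl6 cKO-labelled libraries, 5.12 and 5.40 in Irf2 KO and 5.21 and 5.40 in Nr4a1 KO. Irf2 KO and Nr4a1 KO lay below the other 2 genotypes with no overlap. Mvd fell by 0.45 ± 0.14 in Irf2 KO (adjusted p = 0.0491), and the change in Nr4a1 KO, -0.40 ± 0.14, did not pass (adjusted p = 0.0861). It was 0.61 ± 0.14 lower in Irf2 KO than in the Bcl6 cKO-labelled libraries (adjusted p = 0.0304). The first call ended without either library of wild type, of Irf2 KO or of the Bcl6 cKO label (0.0600 to 0.249), and it came to -0.17 (adjusted p = 0.416) after correction for GC content and length. It also ended with no trend, no filter on low values, quantile normalization, median centring, 2 genotypes alone or voom (0.0511 to 0.108). The second ended without either Irf2 KO library or either of the Bcl6 cKO-labelled libraries (0.0538 to 0.162) and with no trend (0.0751).

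Neighbouring kinases of the arm moved apart between Irf2 KO and Nr4a1 KO. Mvk, which phosphorylates mevalonate, had 3.84 and 3.91 log2 CPM in wild type, 3.41 and 3.63 in the Bcl6 cKO-labelled libraries, 4.0 and 4.38 in Irf2 KO and 3.48 and 3.51 in Nr4a1 KO. Pmvk, which adds the next phosphate, had 5.56 and 5.31 in wild type, 5.10 and 5.38 in the Bcl6 cKO-labelled libraries, 4.55 and 4.97 in Irf2 KO and 5.41 and 5.95 in Nr4a1 KO. Irf2 KO thus held the highest Mvk and the lowest Pmvk values. Mvk was 0.69 ± 0.18 higher (adjusted p = 0.0256) and Pmvk 0.92 ± 0.21 lower (adjusted p = 0.0172) in Irf2 KO than in Nr4a1 KO. The Mvk call ended without Irf2 KO replicate 2 (0.170) or either Nr4a1 KO library (0.0755 and 0.0563), and with 2 genotypes alone (0.06695) or GC and length correction (0.0501). The Pmvk call ended without Irf2 KO replicate 1 (0.105) or Nr4a1 KO replicate 2 (0.0627), and with 2 genotypes alone (0.0561). Neither gene passed against wild type, where Pmvk stood at -0.68 ± 0.21 in Irf2 KO (adjusted p = 0.0545, and 0.0472 in the authors' deposited table).

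Fdps, which makes farnesyl diphosphate, was the least abundant of the 34 genes, with 102 to 401 reads per library. It had 1.65 and 1.60 log2 CPM in wild type, 1.56 and 0.97 in the Bcl6 cKO-labelled libraries, 2.34 and 2.88 in Irf2 KO and 1.80 and 2.39 in Nr4a1 KO. Irf2 KO overlapped Nr4a1 KO and lay above the other 2 genotypes. Fdps was 1.34 ± 0.32 higher in Irf2 KO than in the Bcl6 cKO-labelled libraries (2.54-fold, adjusted p = 0.0372), a call that ended without any 1 of the 6 libraries of wild type, Irf2 KO or that label (0.0548 to 0.216) and with no trend (0.0586). Against wild type the Irf2 KO difference was 0.99 ± 0.32 (adjusted p = 0.0592, and 0.0480 in the authors' deposited table). Fdps shares 26.7% of its exon bases with the annotated gene Gm43738 on the same strand, so reads could be split between them. The first steps, Acat2 (acetoacetyl-CoA) at 4.99 to 5.50 and Hmgcs1 (HMG-CoA) at 4.39 to 4.71 log2 CPM, and the isomerase Idi1 at 2.0 to 3.30, were called in no test.

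In the sterol arm, 9 of the 11 genes were called in no test. The other 2 differed among genotypes by the F-test (18.2%, where 28.2% of all genes did). Sqle, the epoxidase of squalene and a rate-limiting step, had 4.57 and 4.14 log2 CPM in wild type, 3.72 and 3.04 in the Bcl6 cKO-labelled libraries, 4.66 and 4.56 in Irf2 KO and 3.30 and 3.73 in Nr4a1 KO. Wild type and Irf2 KO lay above the other 2 genotypes with no overlap. Sqle was 1.10 ± 0.26 higher in Irf2 KO than in Nr4a1 KO (2.14-fold, adjusted p = 0.0179) and 1.23 ± 0.26 higher than in the Bcl6 cKO-labelled libraries (2.34-fold, adjusted p = 0.0241). Its differences from wild type, -0.97 in the Bcl6 cKO-labelled libraries (adjusted p = 0.0709) and -0.84 for Nr4a1 KO (adjusted p = 0.0616), missed the threshold. In the authors' deposited table the first of these had an adjusted p of 0.0492. The call against Nr4a1 KO ended without either Irf2 KO library or Nr4a1 KO replicate 1 (0.0710 to 0.0862), and that against the Bcl6 cKO-labelled libraries ended without any 1 of the 4 libraries compared (0.0509 to 0.157) and with no trend (0.0617).

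Tm7sf2, a sterol reductase that acts after lanosterol demethylation, had 3.41 and 3.29 log2 CPM in wild type, 2.85 and 2.94 in the Bcl6 cKO-labelled libraries, 3.17 and 3.22 in Irf2 KO and 2.66 and 2.52 in Nr4a1 KO. The 4 genotypes did not overlap, with wild type on top, then Irf2 KO, the Bcl6 cKO-labelled libraries and Nr4a1 KO. Tm7sf2 fell by 0.76 ± 0.18 in Nr4a1 KO (1.69-fold, adjusted p = 0.0217), which ended without either wild type library (0.104 and 0.0704) or Nr4a1 KO replicate 2 (0.0805). That call also ended with 2 genotypes alone (0.0864) and after GC and length correction, where the change was -0.59 (adjusted p = 0.06305). Tm7sf2 was 0.60 ± 0.18 higher in Irf2 KO than in Nr4a1 KO (adjusted p = 0.0398), a call that ended without any 1 of the 8 libraries (0.0547 to 0.162), and with 2 genotypes alone (0.0924) or library weights (0.0542). Tm7sf2 shares 12.1% of its exon bases with Vps51 on the same strand, so reads could be split between them. The other 9 genes of the arm were Fdft1, Lss, Cyp51, Msmo1, Nsdhl, Hsd17b7, Ebp, Sc5d and Dhcr7. Ebp, the sterol isomerase, varied little, from 7.39 to 7.60 log2 CPM. Hsd17b7, a ketoreductase, had the widest range of the 9, from 1.17 to 2.94.

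Proliferation genes differed among the same libraries. Of 12 such genes, 3 rose and 2 fell in Irf2 KO (41.7%, where 21.6% of all genes were called), 5 fell in Nr4a1 KO (41.7%, all genes 15.1%) and 4 fell in the Bcl6 cKO-labelled libraries (33.3%, all genes 5.01%). Their mean log2 CPM was 7.83 and 7.72 in wild type, 7.47 and 7.40 in the Bcl6 cKO-labelled libraries, 7.84 and 7.90 in Irf2 KO and 7.22 and 7.08 in Nr4a1 KO. Against Nr4a1 KO, 10 of the 12 were higher in Irf2 KO and 0 lower (83.3%, where 22.3% of all genes were called). The part of these genes in the sterol values was not tested.

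Fatty acid synthesis gave the most rises against wild type, 3 of its 7 compared genes (42.9%, where 9.26% of all genes rose), all in Irf2 KO, and none was called in the other 2 comparisons with wild type. Fasn (ENSMUSG00000025153, chr11:120805846-120824547), the synthase that builds palmitate, had 4.13 and 4.0 log2 CPM in wild type, 3.93 and 3.79 in the Bcl6 cKO-labelled libraries, 4.86 and 4.99 in Irf2 KO and 4.18 and 4.40 in Nr4a1 KO. Both Irf2 KO libraries were above the other 6. Fasn rose by 0.86 ± 0.15 in Irf2 KO (1.81-fold, adjusted p = 0.00641), whichever library was left out. It was also 0.64 ± 0.15 higher there than in Nr4a1 KO (adjusted p = 0.0168) and 1.07 ± 0.15 higher than in the Bcl6 cKO-labelled libraries (2.09-fold, adjusted p = 0.00546). The call against Nr4a1 KO ended without either Irf2 KO library (0.0527 and 0.108) or Nr4a1 KO replicate 1 (0.0768), and that against the Bcl6 cKO-labelled libraries without their replicate 2 (0.0595).

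Desaturases rose beside Fasn. Scd2, which puts a double bond into saturated fatty acyl chains, had 4.09 and 4.25 log2 CPM in wild type, 4.26 and 3.71 in the Bcl6 cKO-labelled libraries, 4.89 and 5.57 in Irf2 KO and 4.80 and 5.13 in Nr4a1 KO. Irf2 KO and Nr4a1 KO overlapped each other and lay above the rest. Scd2 rose by 1.06 ± 0.26 in Irf2 KO (2.09-fold, adjusted p = 0.0216) and was 1.24 ± 0.26 above the Bcl6 cKO-labelled libraries (adjusted p = 0.0223), while its value in Nr4a1 KO, 0.80 ± 0.26, did not pass (adjusted p = 0.0713). The rise ended without either wild type library (0.0932 and 0.0709) or Irf2 KO replicate 2 (0.129), and the other call ended without either Bcl6 cKO-labelled library (0.0623 and 0.160) or Irf2 KO replicate 2 (0.132). With no trend both ended (0.0521 and 0.0630). Scd2 is close in sequence to Scd1, so reads of such paralogues could be split by the counting.

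Fads1, the delta-5 desaturase of polyunsaturated fatty acids, had 2.32 and 1.45 log2 CPM in wild type, 1.62 and 1.33 in the Bcl6 cKO-labelled libraries, 3.12 and 3.36 in Irf2 KO and 2.83 and 2.22 in Nr4a1 KO. Irf2 KO again lay above the other 6. Fads1 rose by 1.35 ± 0.34 in Irf2 KO (2.55-fold, adjusted p = 0.0239) and was 1.76 ± 0.34 above the Bcl6 cKO-labelled libraries (3.39-fold, adjusted p = 0.0174). The first call ended without wild type replicate 2 (0.128) or either Irf2 KO library (0.0747 and 0.123), and the second without any 1 of the 4 libraries compared (0.0553 to 0.131). Its neighbour Fads2, the delta-6 desaturase, had a mean log2 CPM below 0, with 20 and 44 reads in wild type, 42 and 15 in the Bcl6 cKO-labelled libraries, 34 and 157 in Irf2 KO and 6 and 56 in Nr4a1 KO. The replicates of Fads2 differed too widely to order the genotypes.

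None of the other compared genes of fatty acid synthesis passed against wild type. Acly, which makes cytosolic acetyl-CoA from citrate, was lower in every knockout library (7.07 to 7.27 log2 CPM) than in wild type (7.39 and 7.59), and its changes of -0.33, -0.25 and -0.28 did not pass (adjusted p = 0.120, 0.132 and 0.113 for the Bcl6 cKO-labelled libraries, Irf2 KO and Nr4a1 KO). Acaca, which makes malonyl-CoA, had 3.23 and 3.81 in wild type and 3.97 and 4.07 in Irf2 KO, a difference of 0.50 that did not pass (adjusted p = 0.133). The elongase Elovl5 had 5.63 and 5.62 log2 CPM in wild type, 5.92 and 5.66 in the Bcl6 cKO-labelled libraries, 5.33 and 5.39 in Irf2 KO and 5.79 and 5.76 in Nr4a1 KO. Irf2 KO was thus the lowest genotype for Elovl5. It was 0.41 ± 0.12 lower in Irf2 KO than in Nr4a1 KO (adjusted p = 0.0371), which ended without any 1 of the 6 libraries of wild type, Irf2 KO and Nr4a1 KO (0.0523 to 0.148), and with no trend (0.07285), 2 genotypes alone (0.0663) or library weights (0.0547). Elovl6, a second elongase, kept within 4.41 to 4.74 log2 CPM and was called in no test.

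**Figure D4:**
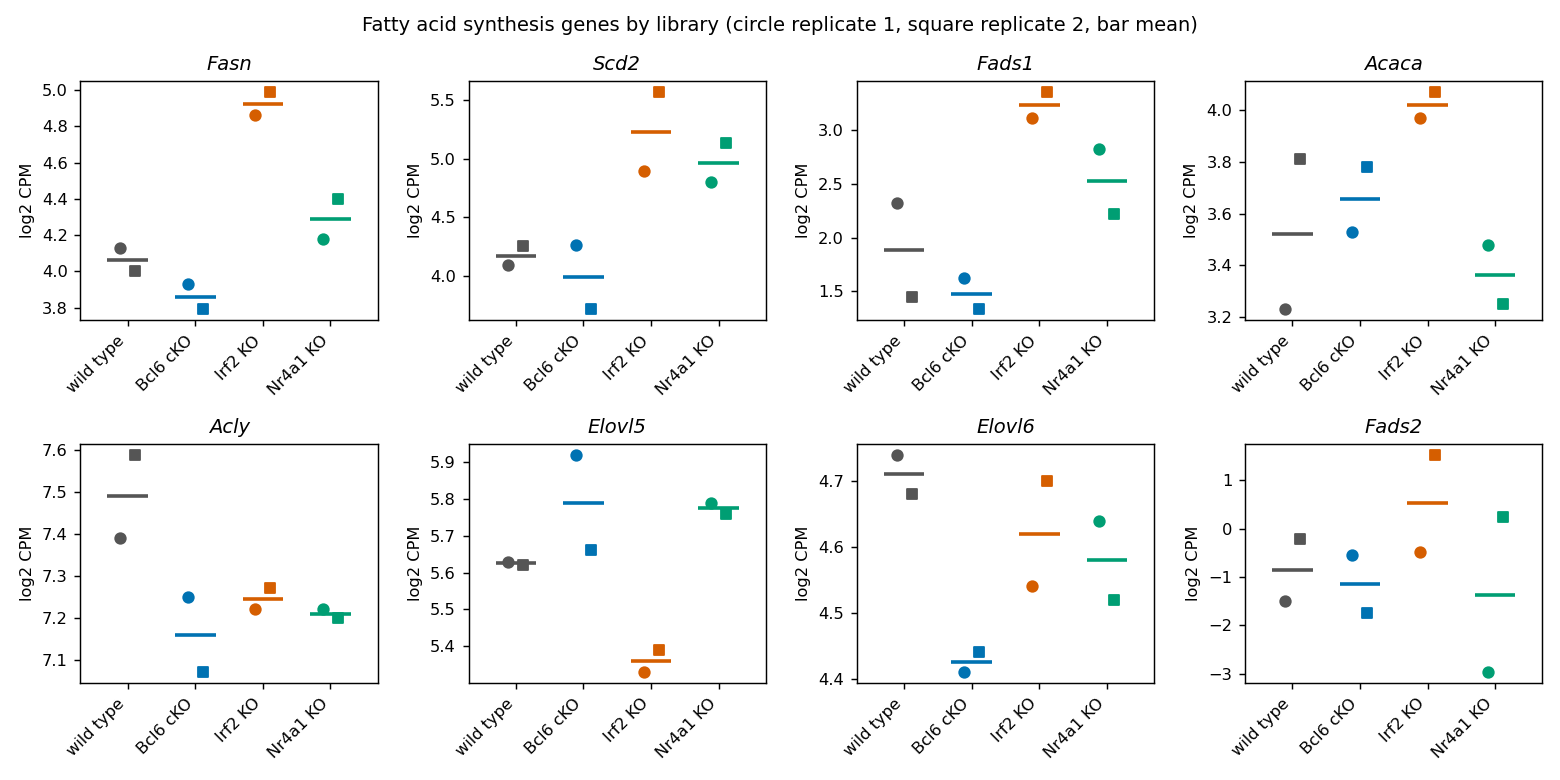
Log2 CPM (vertical axis, a separate range in each panel) of the 8 fatty acid synthesis genes in each library of the 4 genotypes (horizontal axis), with bars at the mean of 2 libraries. Fasn and Fads1 in Irf2 KO lay above the other 6 libraries, while Fads2, with a mean log2 CPM below 0, varied widely within genotypes.

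Among the LXR targets, Apoe and Abcg1 had different patterns across the same genotypes. Apoe (ENSMUSG00000002985, chr7:19696109-19699188), which carries cholesterol out of macrophages, had 5.56 and 5.06 log2 CPM in wild type, 1.72 and 2.43 in the Bcl6 cKO-labelled libraries, 1.75 and 2.34 in Irf2 KO and 6.44 and 4.74 in Nr4a1 KO. These values stood for 2730 and 1715 reads in wild type, 203 and 281 in the Bcl6 cKO-labelled libraries, 163 and 276 in Irf2 KO and 4430 and 1284 in Nr4a1 KO. The 8 libraries formed a high set, wild type and Nr4a1 KO, and a low set with no overlap. Apoe fell by 3.24 ± 0.50 in the Bcl6 cKO-labelled libraries (9.42-fold, adjusted p = 0.0107) and by 3.26 ± 0.50 in Irf2 KO (9.60-fold, adjusted p = 0.00433). In Nr4a1 KO its difference from wild type was 0.28 ± 0.50 (adjusted p = 0.748). The knockouts differed from each other too, with Apoe 3.54 lower in Irf2 KO than in Nr4a1 KO (adjusted p = 0.00170) and 3.52 higher in Nr4a1 KO than in the Bcl6 cKO-labelled libraries (adjusted p = 0.00396). The fall in the Bcl6 cKO-labelled libraries ended without wild type replicate 1 (0.0676) or the first library so labelled (0.124), and the contrast of Nr4a1 KO with that label ended without the same library (0.0508).

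Markers of other cells also differed among these libraries. Of all genes, 12.3% fell in Irf2 KO, 11.2% in Nr4a1 KO and 3.65% in the Bcl6 cKO-labelled libraries. Of 12 macrophage markers 7 were compared. Of these, 1, Slc40a1, fell in Irf2 KO (14.3%), 1, Axl, fell in Nr4a1 KO (14.3%), and none was called in the Bcl6 cKO-labelled libraries. The summed level of the macrophage markers was 138 and 146 CPM in wild type, 128 and 123 in the Bcl6 cKO-labelled libraries, 97.5 and 122 in Irf2 KO and 121 and 115 in Nr4a1 KO. The mean log2 CPM of the 7 was instead higher in the Bcl6 cKO-labelled libraries (2.84 and 2.87) than in wild type (2.41 and 2.46). It was 1.82 and 1.76 in Irf2 KO and 2.01 and 2.67 in Nr4a1 KO. By mean, 5 of the 7 lay above wild type in the Bcl6 cKO-labelled libraries, 0 in Irf2 KO and 4 in Nr4a1 KO. The defining marker C1qb was near 1 CPM, at -0.87 to 2.34 log2 CPM. Neutrophil markers summed to 1797 and 1502 CPM in wild type, 941 and 798 in the Bcl6 cKO-labelled libraries, 340 and 862 in Irf2 KO and 1886 and 1825 in Nr4a1 KO. Of the 10, 6 fell in Irf2 KO (60%), 2 in the Bcl6 cKO-labelled libraries (20%) and none in Nr4a1 KO. Against Nr4a1 KO, 9 of the 10 were lower in Irf2 KO and 0 higher (90%, where 22.3% of all genes were called). Among 4 compared B cell markers 3 fell in Irf2 KO (75%) and 1 in each other knockout (25%). Among 3 compared erythroid markers 3 fell in Irf2 KO (100%) and 1 in each other knockout (33.3%). The B cell markers summed to 84.3 and 84.4 CPM in wild type and to 38.1 to 90.4 in the knockouts, the erythroid markers to 21.0 and 21.7 and to 2.41 to 12.8. The T and NK cell marker that was compared rose in each knockout, and the 2 with values summed to 7.54 to 21.0 CPM over all libraries. The part of these cells in the values of Apoe and the other genes was not tested. In bulk samples, fewer cells of a type and less RNA per cell cannot be told apart.

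Abcg1 (ENSMUSG00000024030, chr17:31057675-31117988), which moves cholesterol to high-density lipoprotein, had 6.97 and 7.69 log2 CPM in wild type, 7.08 and 7.36 in the Bcl6 cKO-labelled libraries, 6.61 and 6.86 in Irf2 KO and 7.94 and 8.41 in Nr4a1 KO. Nr4a1 KO was above, and Irf2 KO below, all other libraries. Abcg1 was 1.44 ± 0.24 lower in Irf2 KO than in Nr4a1 KO (2.71-fold, adjusted p = 0.00388), whichever library was left out. Against wild type it rose by 0.84 ± 0.24 in Nr4a1 KO (1.79-fold, adjusted p = 0.0477), a call that ended without wild type replicate 1 (0.212), Nr4a1 KO replicate 2 (0.170) or any 1 of the 4 libraries of Irf2 KO and the Bcl6 cKO label (0.0639 to 0.0794). The rise was 0.48 without wild type replicate 1. The call also ended with no trend (0.109), no filter on low values (0.0502), 2 genotypes alone (0.122) or library weights (0.0647). In the authors' deposited table its adjusted p there was 0.0578.

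Abca1, the exporter to lipid-poor apolipoproteins, had a mean log2 CPM below 0, with 26 and 38 reads in wild type, 22 and 53 in the Bcl6 cKO-labelled libraries, 4 and 15 in Irf2 KO and 139 and 55 in Nr4a1 KO. The highest counts were in Nr4a1 KO and the lowest in Irf2 KO, but all were too low to be compared here. Mylip, which marks the low-density lipoprotein receptor for degradation, had 1.93 and 1.96 log2 CPM in Irf2 KO and 2.28 to 3.13 in the other libraries, and was called in no test.

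**Figure D5:**
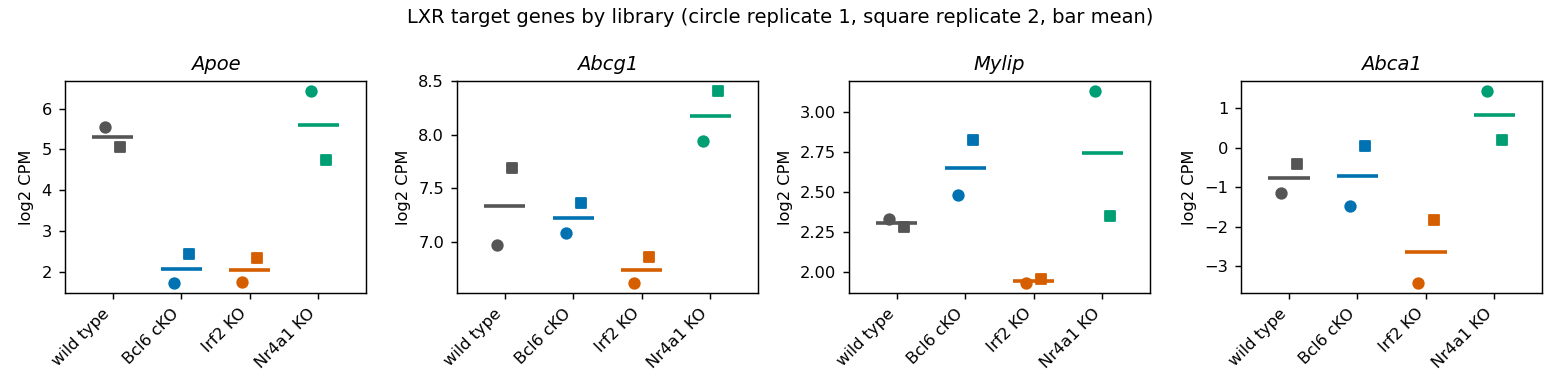
Log2 CPM (vertical axis, a separate range in each panel) of the 4 LXR targets in each library of the 4 genotypes (horizontal axis), with bars at the mean of 2 libraries. Apoe was low in Irf2 KO and in the Bcl6 cKO-labelled libraries, at 1.72 to 2.43, while Abcg1 was highest in Nr4a1 KO.

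Genes next to these in the same pathways were taken from lists written with earlier results of these data known. Their shares beside those of all genes are therefore descriptions. The LXR and RXR list had 12 compared genes, of which 1 rose and 1 fell in the Bcl6 cKO-labelled libraries (16.7%, where 5.01% of all genes were called), 1 rose and 6 fell in Irf2 KO (58.3%, all genes 21.6%), and 1 rose and 3 fell in Nr4a1 KO (33.3%, all genes 15.1%). Nr1h2 (ENSMUSG00000060601, chr7:44549616-44553951), which encodes the LXR-beta receptor, had 6.80 and 7.20 log2 CPM in wild type, 6.62 and 6.67 in the Bcl6 cKO-labelled libraries, 6.60 and 6.68 in Irf2 KO and 4.88 and 5.30 in Nr4a1 KO. Both Nr4a1 KO libraries were far below the other 6. Nr1h2 fell by 1.91 ± 0.17 in Nr4a1 KO (3.76-fold, adjusted p = 0.000136), and by 1.27 after correction for GC content and length (adjusted p = 0.00114). In the same libraries its target Abcg1 was at its highest and Srebf1, another LXR target, at its lowest. Nr1h3, the LXR-alpha receptor, was near 1 CPM, from -1.45 to 1.58 log2 CPM, and was called in no comparison with wild type.

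Other genes of the LXR and RXR list fell in Irf2 KO. Arl4c, a small GTPase of cholesterol transport, had 4.44 and 4.21 log2 CPM in wild type, 4.12 and 4.38 in the Bcl6 cKO-labelled libraries, 2.85 and 2.86 in Irf2 KO and 4.34 and 4.37 in Nr4a1 KO, and so was low in Irf2 KO alone. It fell by 1.47 ± 0.16 (2.77-fold, adjusted p = 0.00153). Pltp, the phospholipid transfer protein, fell by 3.60 ± 0.64 in Irf2 KO (adjusted p = 0.00731), from 0.92 and 1.58 in wild type to -3.14 and -1.56, and by 1.48 on the log2(CPM + 1) scale (adjusted p = 0.0274). Pltp shares 19.3% of its exon bases with Ctsa on the other strand, and the sources used here do not say whether the counting used strand. Abca7, a relative of Abca1, fell by 0.72 ± 0.14 in Irf2 KO (adjusted p = 0.00985) and by 0.63 ± 0.14 in Nr4a1 KO (adjusted p = 0.0178). The Abca7 calls ended without wild type replicate 2 (0.0584 and 0.109), in Irf2 KO also without either of its libraries (0.0504 and 0.0513) and in Nr4a1 KO without its replicate 2 (0.0611). After GC and length correction the Irf2 KO change of Abca7 was -0.30 (adjusted p = 0.0768) and that in Nr4a1 KO -0.15 (adjusted p = 0.350). The Nr4a1 KO call also ended with no trend (0.0586), quantile normalization (0.0506) or 2 genotypes alone (0.0597). Smpdl3a, a phosphodiesterase, fell in all 3, by 1.21 ± 0.19 in the Bcl6 cKO-labelled libraries (adjusted p = 0.0111), 1.10 ± 0.19 in Irf2 KO (adjusted p = 0.00647) and, for Nr4a1 KO, 1.12 ± 0.19 (adjusted p = 0.00494). Leaving out wild type replicate 1 or either Bcl6 cKO-labelled library ended the first of these (0.0565 to 0.126), as did no trend (0.0571). Past the 5 genes that the naming rule takes, the rise in each comparison was that of Lpl, lipoprotein lipase, by 1.55 ± 0.26, 1.16 ± 0.26 and 1.10 ± 0.26 in the same order, and the other falls in Irf2 KO were Rxra and Apoc1, which were named after their values were seen. Rxra fell by 0.73 (limma, adjusted p = 0.0173), which ended after GC and length correction (0.1685), and also when the second library of wild type (0.0953) or of Irf2 KO (0.1005) was left out. The Lpl calls ended without wild type replicate 1 in each comparison (0.0775, 0.0809 and 0.112), and also without either Bcl6 cKO-labelled library (0.143 and 0.0565), either Irf2 KO library (0.0605 and 0.0819) or wild type replicate 2 in Nr4a1 KO (0.0588). With no trend they ended in the Bcl6 cKO-labelled libraries (0.0611) and in Nr4a1 KO (0.06595), and in the latter also with 2 genotypes alone (0.0807). Without Nr4a1 KO replicate 2 the Lpl rise there was 0.65 (limma, adjusted p = 0.0422).

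The list of cholesterol uptake, storage and egress had 13 compared genes. None rose and 1 fell in the Bcl6 cKO-labelled libraries (7.69%, where 5.01% of all genes were called), none rose and 5 fell in Irf2 KO (38.5%, all genes 21.6%), and 1 rose and 3 fell in Nr4a1 KO (30.8%, all genes 15.1%). Scarb1, the high-density lipoprotein receptor SR-B1, had 7.97 and 7.63 log2 CPM in wild type, 6.46 and 6.81 in the Bcl6 cKO-labelled libraries, 6.60 and 7.0 in Irf2 KO and 6.30 and 6.21 in Nr4a1 KO. Wild type was above all knockout libraries. Scarb1 fell by 1.17 ± 0.18 (adjusted p = 0.0102), 1.0 ± 0.18 (adjusted p = 0.00719) and 1.55 ± 0.18 (adjusted p = 0.000591) in that order, and the first of these ended without wild type replicate 1 (0.0619) or the first Bcl6 cKO-labelled library (0.114), and with no trend (0.0522). Cyp27a1, which makes the LXR ligand 27-hydroxycholesterol, had 5.83 and 6.39 log2 CPM in wild type, 5.35 and 5.74 in the Bcl6 cKO-labelled libraries, 4.60 and 4.21 in Irf2 KO and 5.14 and 5.21 in Nr4a1 KO. It was lowest in Irf2 KO, where it fell by 1.71 ± 0.22 (3.26-fold, adjusted p = 0.00238), and it fell by 0.94 ± 0.22 in Nr4a1 KO (adjusted p = 0.0224), where the call ended without wild type replicate 2 (0.132) or Nr4a1 KO replicate 1 (0.0578) and came to -0.65 after GC and length correction (adjusted p = 0.0865), and with no trend its adjusted p was 0.0592. Nceh1, a cholesteryl ester hydrolase, fell by 0.70 ± 0.13 in Irf2 KO (adjusted p = 0.00889), which ended without Irf2 KO replicate 2 (0.0592). Osbp, an oxysterol-binding protein, rose by 0.61 ± 0.13 in Nr4a1 KO (adjusted p = 0.0133), which ended without wild type replicate 2 (0.0750) or Nr4a1 KO replicate 1 (0.0605), and with 2 genotypes alone (0.0627). Stard3, a sterol carrier of late endosomes, fell by 0.67 ± 0.16 in Irf2 KO (adjusted p = 0.0194) and by 0.55 ± 0.16 in Nr4a1 KO (adjusted p = 0.0482). After GC and length correction Stard3 no longer passed, at -0.39 (adjusted p = 0.105) and -0.10 (adjusted p = 0.679). Its calls ended without wild type replicate 2 (0.0912 and 0.230), the Irf2 KO one also without either Irf2 KO library (0.0791 and 0.0872), and the Nr4a1 KO one without any library of the 3 knockouts (0.0505 to 0.153). Without wild type replicate 2 the changes of Stard3 were -0.42 and -0.30. The Irf2 KO call also ended with no trend (0.0556), and the Nr4a1 KO one with no trend, no filter on low values, quantile normalization, median centring, 2 genotypes alone, library weights or voom (0.0516 to 0.143). In the authors' deposited table the adjusted p of Stard3 in Nr4a1 KO was 0.0719. The fifth fall in Irf2 KO, past the naming rule, was Lrp1, by 1.08 ± 0.27, which ended without either wild type library (0.0569 and 0.125) or Irf2 KO replicate 1 (0.121, with a change of -0.68). After GC and length correction the change of Lrp1 was -0.66 (limma, adjusted p = 0.109), and with no trend of the prior variance its adjusted p was 0.0636.

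The 13 compared genes of the second fatty acid list held no rise. In the Bcl6 cKO-labelled libraries 1 fell (7.69%, where 3.65% of all genes fell), in Irf2 KO 1 (7.69%, all genes 12.3%) and in Nr4a1 KO 3 (23.1%, all genes 11.2%). Mid1ip1, a partner of acetyl-CoA carboxylase and a known SREBP-1 and LXR target, had 5.21 and 5.45 log2 CPM in wild type, 4.16 and 4.67 in the Bcl6 cKO-labelled libraries, 4.75 and 4.87 in Irf2 KO and 3.66 and 3.97 in Nr4a1 KO. Its order over the genotypes by mean, wild type, Irf2 KO, the Bcl6 cKO-labelled libraries and Nr4a1 KO, was that of Srebf1. It fell by 0.91 ± 0.20 in the Bcl6 cKO-labelled libraries (adjusted p = 0.0349) and by 1.52 ± 0.20 in Nr4a1 KO (adjusted p = 0.00115), and it shares 25.5% of its exon bases with Gm14493 on the other strand. After correction for GC content and length the first change was -0.65 (adjusted p = 0.0919), and its call ended without either wild type library, the first Bcl6 cKO-labelled library or either Irf2 KO library (0.0579 to 0.216) and with no trend (0.0904). Hacd3, a dehydratase of chain elongation, fell by 0.94 ± 0.15 in Nr4a1 KO (adjusted p = 0.00329), and Fabp5, a fatty acid carrier, by 0.47 ± 0.13 (adjusted p = 0.0430). The Fabp5 call held without Nr4a1 KO replicate 1 and ended without any of the other 7 libraries (0.0515 to 0.165). It also ended with no trend, quantile normalization, median centring, 2 genotypes alone, library weights or GC and length correction (0.0647 to 0.111). In the authors' deposited table the adjusted p of Fabp5 was 0.0709. Acsl1, which activates long-chain fatty acids, fell by 1.12 ± 0.18 in Irf2 KO (adjusted p = 0.00529), where Fasn, Scd2 and Fads1 had risen.

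The remaining list, 16 further genes of sterol and isoprenoid synthesis and SREBP processing, held few calls. None was called in the Bcl6 cKO-labelled libraries, 1 fell in Irf2 KO (6.25%, where 21.6% of all genes were called), and 1 rose and 1 fell in Nr4a1 KO (12.5%, all genes 15.1%). Mbtps1, the first protease that cleaves SREBPs, fell by 0.47 ± 0.15 in Irf2 KO (adjusted p = 0.0489), but by 0.25 after correction for GC content and length (adjusted p = 0.227), and the call ended without wild type replicate 2, either Bcl6 cKO-labelled library or either Irf2 KO library (0.0796 to 0.258). Without wild type replicate 2 the change of Mbtps1 was -0.28. The call also ended with no trend, no filter on low values, quantile normalization, median centring, 2 genotypes alone or voom (0.05195 to 0.1165). Ggps1, which makes geranylgeranyl diphosphate, rose by 0.57 ± 0.13 in Nr4a1 KO (adjusted p = 0.0197), which ended without wild type replicate 2 (0.117) or either Nr4a1 KO library (0.0532 and 0.0596), and with 2 genotypes alone (0.07605). Apart from Scarb1, Smpdl3a and Lpl, no gene of the 4 lists was called in all 3 comparisons.

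Per length, the wild type levels of the 36 genes spanned from 0.0588 CPM per kilobase of the longest transcript for Abca1 to 105.5 for Ebp. Next to Ebp stood Acly at 40.6, Pmvk at 36.4, Mvd at 28.6, Apoe at 28.6 and Abcg1 at 28.5. Srebf2 (10.5) and Srebf1 (8.18) were of similar level, Insig1 (18.2) was above Insig2 (7.60), and Fasn (1.67), Fads1 (1.12), Fdps (1.04) and Lss (0.639) were low.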

How the data were processed

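RNA-seq libraries of sorted Ly6C-high monocytes were grouped by the genotype in their labels. The submitters' processing notes name STAR, Subread featureCounts, Salmon, limma and genome build mm10, with no order. The deposited table of the authors gave log2 CPM per library, log2 of reads plus 0.5 over a scaled library total plus 1. Undoing this gave whole reads for 100% of values (tolerance 0.01), and 45 repeated rows of 13789 were left out. The authors' deposited log2 fold changes and adjusted p-values, per the file headers, were used only as an alternative.

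The 12752 genes with a mean log2 CPM of at least 0 entered a limma fit (version 3.58.1, R 4.3.3, means of 4 groups over 8 libraries, with a trend of the prior variance, 4 residual and 4.66 prior degrees of freedom), with Benjamini-Hochberg adjustment per comparison. The procedure was checked on simulated data. Members, gene lists and tests were chosen with earlier results of these data known. All 36 members are accounted for, and those called in any test are given by library. Of the other lists, genes called against wild type are named, up to 5 a list by adjusted p, except 1 gene that is not reported here. Median centring moved log2 fold changes against wild type by 0.07, 0.10 and 0.13 and changed the sign of no called member. Gene positions, GC content and transcript lengths came from GENCODE M21 (GRCm38), and promoters from RefSeq (GRCm38.p6). Of the listed genes, Ch25h, Scd1, Me1, Fabp4 and Apoc2 were not analysed here. Figures were drawn with matplotlib 3.10.9.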

Additional observations from a re-analysis of the deposited data

How the results depend on the processing

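Of 32 calls of the 36 genes over 6 comparisons, 16 held under every other setting run (12 against wild type, which include the authors' own test, and 11 between knockouts), 6 held also whichever of the 8 libraries was left out, and 0 turned direction. The 6 were Fasn and Apoe in Irf2 KO and Srebf1 in Nr4a1 KO, each against wild type, and Srebf1, Apoe and Abcg1 between Irf2 KO and Nr4a1 KO. Counts of called members moved by over 1.5 times as follows, and the cause was not tested. With no trend of the prior variance they were 4 for Irf2 KO against wild type, 2 for Irf2 KO against the libraries labelled Bcl6 cKO and 7 for any difference. With only the groups compared they were 2 for Nr4a1 KO against wild type, 7 for Irf2 KO against Nr4a1 KO, 13 for Irf2 KO against Bcl6 cKO and 2 for Nr4a1 KO against Bcl6 cKO. Library weights gave 12 for Irf2 KO against Bcl6 cKO. Correction for GC content and length gave 2 for Nr4a1 KO against wild type. For Nr4a1 KO against Bcl6 cKO, where the count was 1, the higher filter on low values gave 3, and log2(CPM + 1), median centring, GC and length correction and voom each gave 2. Leaving out 1 library gave 0 to 3 calls for Bcl6 cKO, 2 to 10 for Irf2 KO and 2 to 4 for Nr4a1 KO against wild type, 4 to 10 for Irf2 KO against Nr4a1 KO, 0 to 10 for Irf2 KO against Bcl6 cKO, 1 to 3 for Nr4a1 KO against Bcl6 cKO and 6 to 13 for any difference; the group left with 1 library was assumed to vary like the others. Replicate numbers were not treated as pairs in the main fit. Differences of replicate 1 minus replicate 2 correlated from -0.003 to 0.183 between genotypes. These correlations do not settle whether libraries were handled in pairs. With the replicate block the counts were 2, 9 and 4 against wild type in the order above, 10, 8 and 4 between knockouts and 12 for any difference. The block ended the calls of Tm7sf2 between Irf2 KO and Nr4a1 KO (0.0535), Stard4 between Irf2 KO and Bcl6 cKO (0.0615), Mbtps1 in Irf2 KO (0.0576) and Fabp5 in Nr4a1 KO (0.0549). A quasi-likelihood count test was not run. Fdps, Fads1, Fads2 and Abca1 are limited most by depth.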

Other observations

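Mertk, an LXR target and receptor for the uptake of dying cells, had a mean log2 CPM below 0 over the 8 libraries and was not compared. Its log2 CPM was -0.63 and -0.95 in wild type, 3.45 and 3.94 in the libraries labelled Bcl6 cKO, -0.29 and -3.07 in Irf2 KO and -0.20 and -2.88 in Nr4a1 KO. Both libraries labelled Bcl6 cKO were above the other 6, and the gene was named after its values were seen. In the authors' deposited table its change in the libraries labelled Bcl6 cKO was 4.46 (adjusted p = 0.00715). Apoe and Apoc1, which lie side by side on chromosome 7, were both low in Irf2 KO. Apoc1 had 2.83 and 2.42 log2 CPM in wild type, -0.01 and 1.23 in the libraries labelled Bcl6 cKO, 0.09 and 0.39 in Irf2 KO and 3.63 and 2.06 in Nr4a1 KO, so that wild type and Nr4a1 KO were again the higher genotypes. Apoc1 fell by 2.39 ± 0.55 in Irf2 KO (limma, adjusted p = 0.0180), which ended without either library of wild type or Irf2 KO (0.0627 to 0.0857).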
